A study of Mus musculus with 14 samples.

Results

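Neutrophil granule genes were followed in caudal intervertebral discs of mice with type 2 diabetes. The group consists of 10 genes found by their symbols among the 55487 genes of the count table, namely *S100a8*, *S100a9*, *Elane*, *Mpo*, *Camp*, *Ltf*, *Ngp*, *Lcn2*, *Retnlg* and *Prtn3*. All 10 were found. RNA was measured in 14 libraries, each made from 5 caudal discs of 1 male mouse, pooled, so a library stands for a mouse. The first model compared 3 db/db mice, in which both copies of the leptin receptor gene (*Lepr*) are mutant in all tissues, with 3 db/+ littermates that carry 1 working copy, at 12 weeks of age. The second compared 4 STZ-HFD mice with 4 Con+Veh mice, all C57BL/6J. STZ-HFD mice ate a high-fat diet for 4 to 6 weeks, received 1 injection of 100 mg/kg streptozotocin, a toxin of insulin-producing cells, and ate the diet for 12 weeks more. Con+Veh mice ate chow and received the citrate buffer alone. All libraries were amplified from little RNA and carry the same batch label.

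Neutrophils load granules with proteins as they mature in the bone marrow, in waves that follow each other. Azurophil granules form first and hold myeloperoxidase (*Mpo*) and the serine proteases neutrophil elastase (*Elane*) and proteinase 3 (*Prtn3*). Specific granules form later and hold lactoferrin (*Ltf*), the cathelicidin peptide (*Camp*), neutrophilic granule protein (*Ngp*) and lipocalin 2 (*Lcn2*). Mature neutrophils are also rich in the calcium-binding proteins S100A8 and S100A9, which pair as calprotectin, and in resistin-like gamma (*Retnlg*). *Lcn2* is not restricted to neutrophils, since epithelial cells, adipocytes and chondrocytes also make it. A healthy disc has few vessels, and its vertebral ends lie against bone marrow.

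The sequences just upstream of 5 of these genes are shown because the results turn on their transcripts. They come from RefSeq promoters on GRCm38.p6, which matched all 10 genes, and each is the longest stretch of the 250 bases before the RefSeq start that lies in no annotated exon of the gene. They read 5′ to 3′ on the gene's strand, from chr3:90668821-90668977 (plus strand), chr3:90695722-90695971 (minus), chr9:110419558-110419746 (plus), chr16:48872358-48872607 (plus) and chr2:32387798-32387850 (minus). Capitals mark a match to TTNNGNAA, a form of the site bound by C/EBP factors, or to GAGGAA, the core bound by PU.1, both searched on both strands.
S100a8: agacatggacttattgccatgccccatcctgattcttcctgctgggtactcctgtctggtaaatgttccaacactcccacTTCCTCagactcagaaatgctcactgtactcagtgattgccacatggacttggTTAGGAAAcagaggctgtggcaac
S100a9: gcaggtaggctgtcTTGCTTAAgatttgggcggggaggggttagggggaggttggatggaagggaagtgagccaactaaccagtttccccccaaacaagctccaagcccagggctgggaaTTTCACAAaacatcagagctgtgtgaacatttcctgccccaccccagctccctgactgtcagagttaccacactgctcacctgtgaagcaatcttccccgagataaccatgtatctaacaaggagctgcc
Ngp: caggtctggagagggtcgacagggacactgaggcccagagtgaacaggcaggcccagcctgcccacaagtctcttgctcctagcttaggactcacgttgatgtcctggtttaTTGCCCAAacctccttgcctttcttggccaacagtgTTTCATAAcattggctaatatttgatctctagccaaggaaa
Retnlg: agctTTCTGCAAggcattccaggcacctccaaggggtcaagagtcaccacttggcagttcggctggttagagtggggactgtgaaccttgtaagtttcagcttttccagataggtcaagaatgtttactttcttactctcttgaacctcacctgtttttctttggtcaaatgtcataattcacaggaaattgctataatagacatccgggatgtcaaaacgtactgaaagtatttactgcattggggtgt
Lcn2: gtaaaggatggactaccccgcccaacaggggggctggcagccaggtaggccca
Over the full 250 bases, 6 of the 10 promoters held TTNNGNAA, against 36.8% of 32851 RefSeq promoters. GAGGAA was in 6 of the 10, against 23.3%. TATAAA on the gene's strand was in 1 (*S100a8*), against 7.59%. Where 2 motifs overlapped, both were counted. A match describes letters only.

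The genes lie in neighborhoods on GRCm38. *S100a8* and *S100a9* lie 22596 bases apart on chromosome 3, and *Prtn3* and *Elane* 3072 bases apart on chromosome 10. *Camp*, *Ngp* and *Ltf* share chromosome 9. Each gene is protein coding. *Mpo* overlaps the antisense gene *Gm11505*, and *Prtn3* overlaps *Plppr3* on the other strand. Whether counting used strand is not given in the sources used here, so reads of *Mpo* and *Prtn3* may include reads of those partners.

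The total per library ran from 46252923 to 50964167 counts in db/+, 43397872 to 52363402 in db/db, 23173075 to 58943169 in Con+Veh and 16076908 to 46532382 in STZ-HFD. The level that 3 counts give, taken as the floor, was 0.0431 to 0.163 CPM (read counts scaled to the depth of the library after TMM normalization). Floors and intervals on counts cover counting error only. STZ-HFD replicate 1 stood apart from the other 13 libraries. It had the fewest counts but 42626 detected genes, against 25194 to 29924. Of 1410 olfactory receptor genes, which serve smell in the nose, 1320 had a count there, against 188 to 341 elsewhere. Per kilobase of exon, the median olfactory receptor gene stood at 0.385 CPM in that library and at 0 in each of the others. The median granule gene stood at 0.389 CPM per kilobase there, and 0 of the 10 exceeded the 95th percentile of the receptor genes. In the other libraries 2 to 9 of the 10 exceeded it. The STZ-HFD differences of the granule genes are therefore also given without that library.

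**Figure D1:**
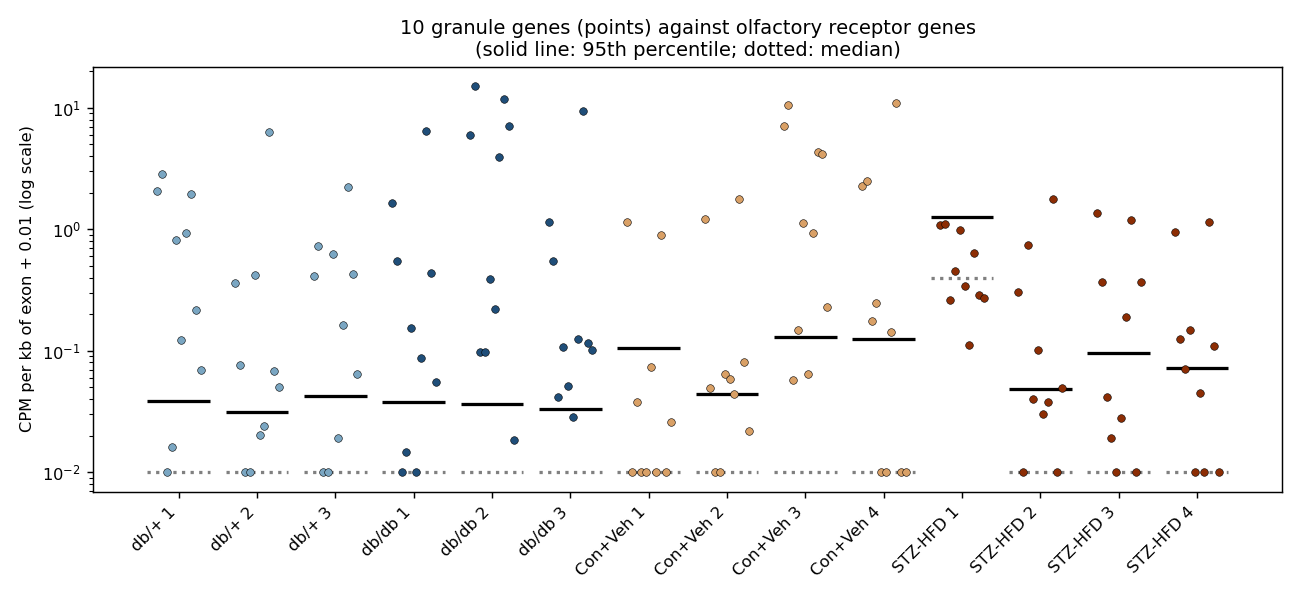
Level of each granule gene in each library, as CPM per kilobase of exon plus 0.01 on a log scale. Points are the 10 genes, colored by group, and lines give the median (dotted) and 95th percentile (solid) of 1410 olfactory receptor genes. In STZ-HFD replicate 1 all points lie below the solid line.

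Most granule genes were near the floor in the disc. Only 3 of the 10, *Lcn2*, *S100a8* and *S100a9*, passed the filter on low counts, a CPM above 1 in at least 3 libraries. The median count over the 14 libraries was 246.5 for *Lcn2*, 29.5 for *S100a8* and 16 for *S100a9*, and between 1 and 4.5 for the other 7. Per kilobase of exon, the mean over 14 libraries was 4.35 CPM for *Lcn2*, 2.46 for *S100a9*, 1.92 for *S100a8*, 0.922 for *Retnlg*, 0.470 for *Ngp* and 0.332 for *Camp*. It was 0.103 or less for *Elane*, *Prtn3*, *Mpo* and *Ltf*. The exon length of *Lcn2* includes retained introns, which lowers its value on this scale. Calls required an absolute log2 fold change of 1 or more together with an adjusted p below 0.05. By this rule 0 of the 3 genes in the fit were called in db/db against db/+, where 1.66% of all 16915 genes tested were called (1.23% higher and 0.432% lower). In STZ-HFD against Con+Veh 0 of 3 were called, against 2.61% (1.30% higher and 1.31% lower). At an unadjusted p under 0.05, 1 of the 3 passed in each model, *Lcn2* both times, where 21.1% and 17.9% of all genes passed (limma's voomWithQualityWeights). DESeq2 called 0 and 1 and edgeR's quasi-likelihood test 0 and 0.

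**Figure D2:**
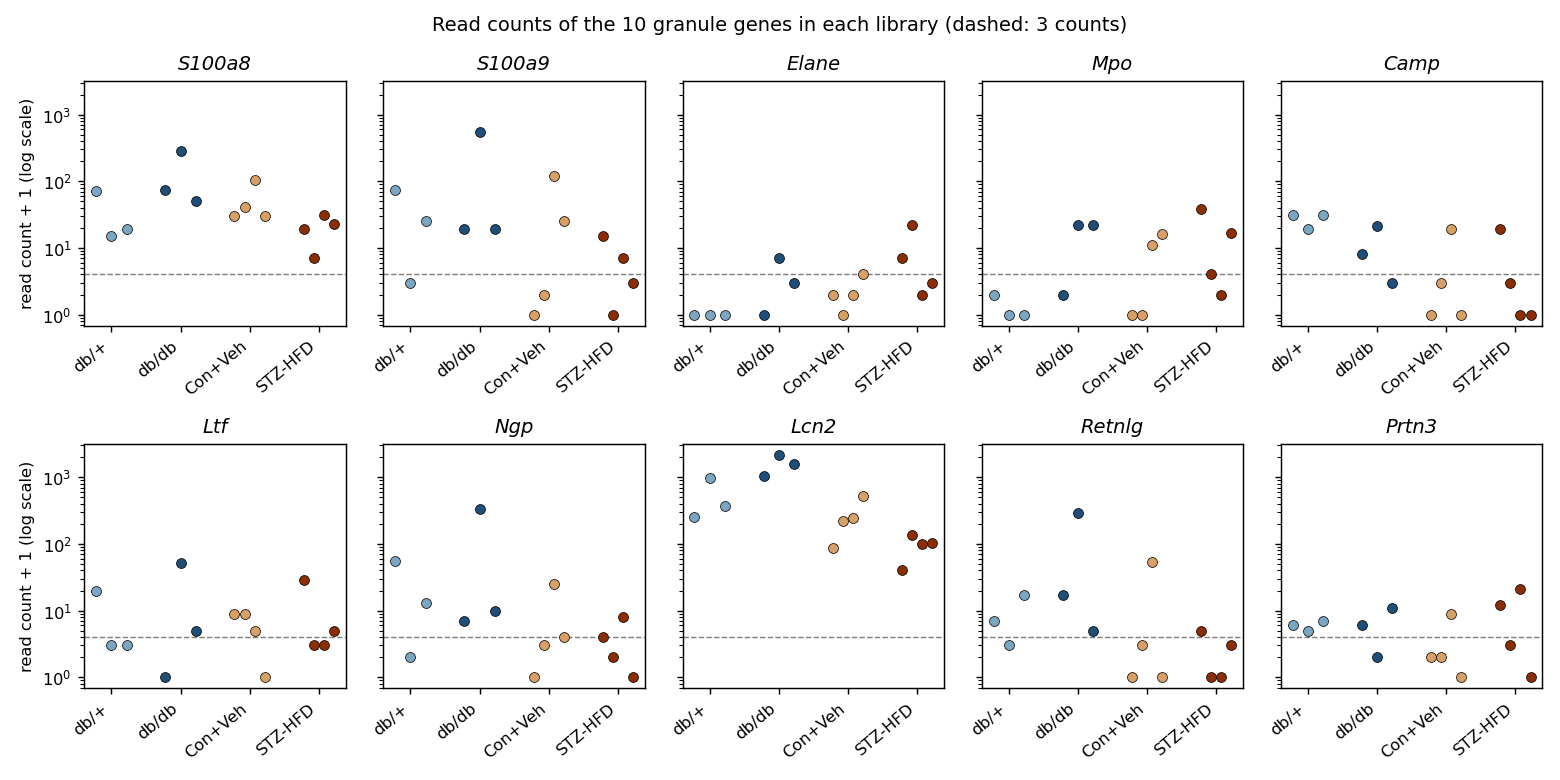
Read count plus 1 (log scale) of each granule gene, 1 point per library, by group. The dashed line marks 3 counts. *Lcn2* lies between 40 and 2170 counts, and *Elane* reaches more than 3 counts in 3 of the 14 libraries.

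*Lcn2* (ENSMUSG00000026822, chromosome 2 from 32384633 to 32388252) encodes a carrier of bacterial siderophores that withholds iron. It stood at 16.7, 31.2 and 24.6 CPM in the 3 db/db libraries and at 5.13, 16.7 and 5.84 CPM in the 3 db/+ libraries. The db/db values lay above the db/+ values without overlap, though the nearest pair met at 16.7 CPM after rounding. Of all genes in the fit, 14.1% were higher in db/db without overlap and 11.7% lower. Mean levels were 24.2 ± 7.23 CPM in db/db and 9.22 ± 6.47 CPM in db/+ (SD, n = 3 each). The log2 fold change was 1.49 (standard error 0.51, 95% interval 0.42 to 2.56), with an adjusted p = 0.115 (limma, Benjamini-Hochberg). Of 6 markers of adipocytes, which can also make *Lcn2*, 3 were called higher in db/db, against 1.23% of all genes. *Cidec* rose without a call, by a log2 fold change of 1.33. The most abundant markers, *Car3* and *Cfd*, went the other way, also without a call. Mean levels were 901 CPM in db/db and 1860 CPM in db/+ for *Car3*, and 142 and 215 CPM for *Cfd*. The part of adipocytes in the *Lcn2* values was not tested. For bulk RNA, fewer cells of a type and less RNA per cell cannot be told apart.

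In the second model, *Lcn2* stood at 1.64, 4.64, 3.11 and 3.00 CPM in STZ-HFD and at 2.34, 4.63, 11.4 and 28.6 CPM in Con+Veh. The groups overlapped, because Con+Veh replicates 1 and 2 lay within the range of STZ-HFD. All 10 granule genes overlapped in this model. Of the genes in the fit, 1.97% were higher in STZ-HFD without overlap and 2.77% lower, and of all genes with a count 1.29% and 1.10%. Means were 3.10 ± 1.23 and 11.8 ± 11.9 CPM (SD, n = 4 each). The log2 fold change was -1.98 (standard error 0.63, 95% interval -3.31 to -0.65), at an adjusted p = 0.0934 (limma). The fit gave quality weights of 3.05 and 1.81 to Con+Veh replicates 3 and 4, the 2 highest controls. Con+Veh replicates 1 and 2 had weights of 0.275 and 0.462. Over 24 alternatives the fold change ran from -2.32 to -1.13, with adjusted p from 0.0413 to 0.597. Without STZ-HFD replicate 1 it was -1.90, at an adjusted p = 0.114 (limma). Without Con+Veh replicate 4, the highest control, it was -1.27 at an adjusted p = 0.409, and without Con+Veh replicate 1 or 2 the gene was called, at 0.0442 and 0.0413 (limma).

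In the fit of all 14 libraries, the 2 models differed for *Lcn2*. The log2 fold change in STZ-HFD minus that in db/db was -3.47 (standard error 0.81, 95% interval -5.18 to -1.76), with an adjusted p = 0.0393 (limma), and 1.77% of all genes were called in this contrast (0.952% higher and 0.816% lower). *Lcn2* was 1 of the 3 genes in the fit to be called. The call depended on single libraries. Leaving out each of the 14 in turn ended it 11 times, with adjusted p from 0.0215 to 0.153, and it held without Con+Veh replicate 1, Con+Veh replicate 2 or STZ-HFD replicate 1. It was also lost with edgeR's quasi-likelihood test, with voom without quality weights, with filterByExpr, with no filter and without both libraries whose names end in RIP. The fold change kept its sign in all 23 alternatives, from -4.07 to -2.68. By group mean, the order of levels from the lowest was STZ-HFD, db/+, Con+Veh and db/db. Without Con+Veh replicate 4 the Con+Veh mean was 6.13 CPM, below db/+. All STZ-HFD libraries lay below all db/+ libraries, which belong to the other model. Con+Veh overlapped with its neighbors on both sides. Ribosomal RNA took 28.1% to 39.7% of counts in db/+ and db/db libraries, against 44.4% to 60.2% in Con+Veh and STZ-HFD. Its bearing on the order of levels across the models was not tested.

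**Figure D3:**
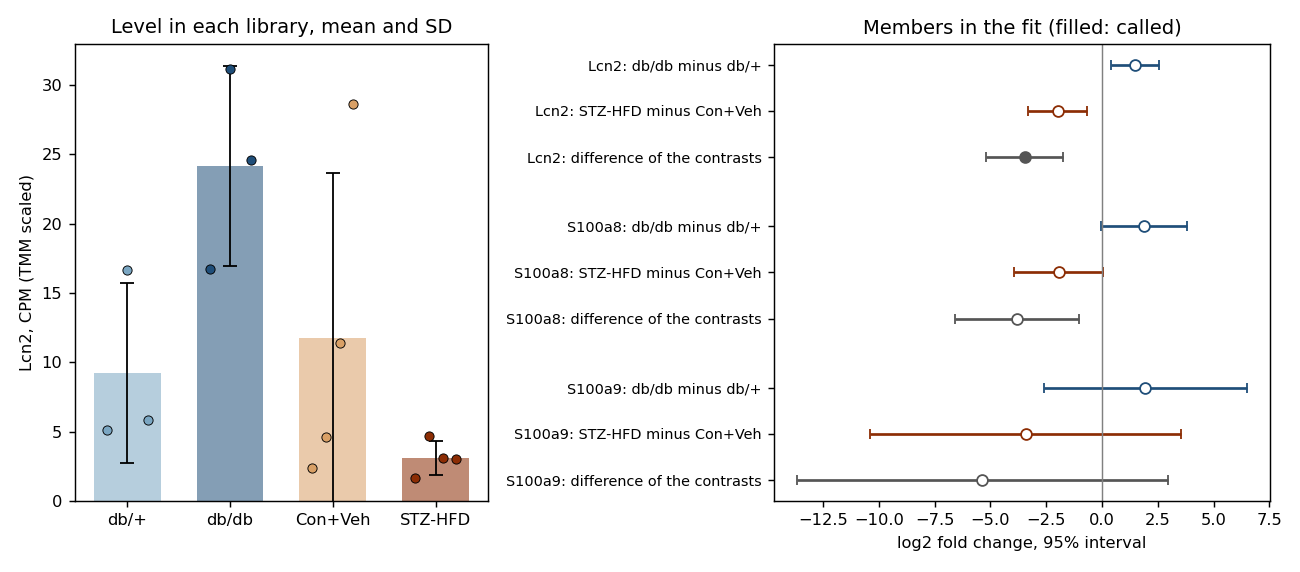
Left, *Lcn2* in CPM for each library (points) with group mean (bars) and SD (lines), where the SD of Con+Veh reaches below 0. Right, log2 fold change with 95% interval for the 3 granule genes in the fit, filled where called. The only filled point is the *Lcn2* difference of -3.47.

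**Figure D4:**
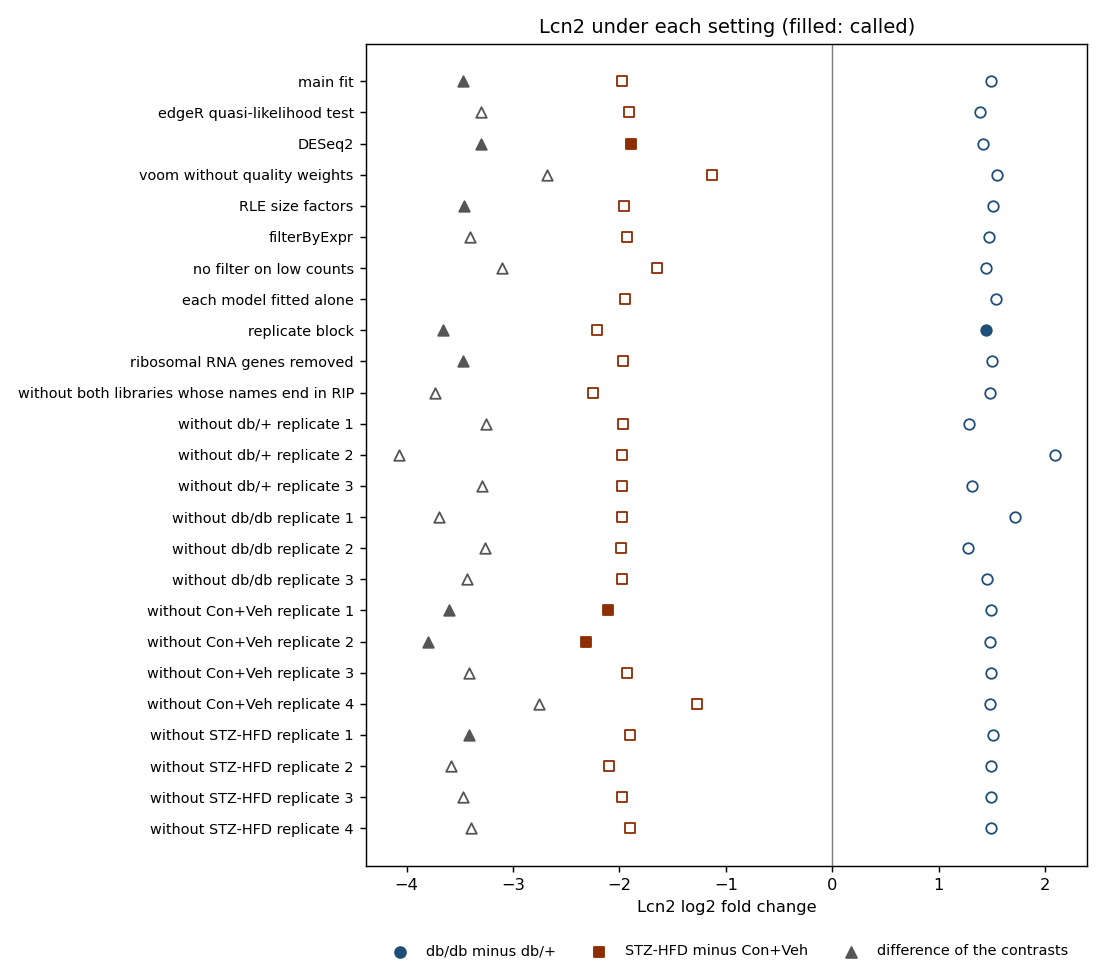
Log2 fold change of *Lcn2* under each setting, for db/db minus db/+ (circles), STZ-HFD minus Con+Veh (squares) and their difference (triangles). Filled symbols were called. All circles lie above 0 and all squares and triangles below 0, while few symbols are filled.

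*S100a8* (ENSMUSG00000056054, chromosome 3 from 90668978 to 90670035) had reads in all 14 libraries. It stood at 1.13, 4.13 and 0.786 CPM in db/db and at 1.44, 0.243 and 0.280 CPM in db/+, so the groups overlapped. In Con+Veh it stood at 0.788, 0.831, 4.93 and 1.58 CPM and in STZ-HFD at 0.740, 0.206, 0.932 and 0.654 CPM. The highest libraries were db/db replicate 2 and Con+Veh replicate 3. The log2 fold change was 1.88 (standard error 0.91, 95% interval -0.04 to 3.80, adjusted p = 0.247) in db/db. In STZ-HFD it was -1.94 (standard error 0.94, 95% interval -3.93 to 0.05, adjusted p = 0.293, limma). The difference of the models was -3.82 (standard error 1.31, adjusted p = 0.139, limma). Without db/db replicate 2 the first became 1.11, and without Con+Veh replicate 3 the second became -0.79. Without STZ-HFD replicate 1 the second was -1.91, and with voom without quality weights it was -1.11.

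*S100a9* (ENSMUSG00000056071, chromosome 3 from 90692632 to 90695721) encodes the partner of S100A8. It stood at 0.283, 7.90 and 0.283 CPM in db/db and at 1.48, 0.0348 and 0.373 CPM in db/+. In Con+Veh it stood at 0, 0.0208, 5.50 and 1.30 CPM, and in STZ-HFD at 0.576, 0, 0.186 and 0.0595 CPM. Of its 848 counts, 64.9% came from db/db replicate 2. The log2 fold change was 1.95 (standard error 2.16, 95% interval -2.60 to 6.50, adjusted p = 0.641) in db/db and -3.41 (standard error 3.30, 95% interval -10.4 to 3.55, adjusted p = 0.642) in STZ-HFD (limma). Without db/db replicate 2 the former was 0.22, and without Con+Veh replicate 3 the latter was -0.74. With voom without quality weights the latter was -0.20, and without STZ-HFD replicate 1 it was -3.52.

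The partners did not keep 1 ratio. *S100a9* took 65.6% of the pair's counts in db/db replicate 2 (exact 95% interval 62.3 to 68.8), and 52.7% in Con+Veh replicate 3 (45.9 to 59.4). It took 50.7% in db/+ replicate 1 (42.2 to 59.2). In Con+Veh replicate 1 it took 0 of 29 counts (0 to 11.9), and in Con+Veh replicate 2 it took 2.44% (0.0617 to 12.9). Over the libraries, 6 had a share from 43.8% to 65.6% and the other 8 had 0% to 26.5%. Those 6 were db/+ replicates 1 and 3, db/db replicate 2, Con+Veh replicates 3 and 4 and STZ-HFD replicate 1. The STZ-HFD group was thus among them through replicate 1 alone, where *S100a9* took 43.8% of 32 counts (26.4 to 62.3). In that library 0 of the 10 granule genes exceeded the 95th percentile of the receptor genes. In STZ-HFD replicates 2, 3 and 4 the share was 0%, 16.7% and 8.33%. *S100a8* thus had reads in libraries where *S100a9* had few or none.

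Specific granule genes differed in how far 1 mouse carried their reads. *Ngp*, a cystatin-like granule protein (ENSMUSG00000032484, chromosome 9 from 110419747 to 110423012), had 6, 332 and 9 counts in db/db and 55, 1 and 12 in db/+. It had 0, 2, 24 and 3 counts in Con+Veh and 3, 1, 7 and 0 in STZ-HFD. Thus 73.0% of all its counts came from db/db replicate 2. *Ltf*, which binds iron (ENSMUSG00000032496, chromosome 9 from 111019271 to 111042767), had 0, 51 and 4 counts in db/db and 19, 2 and 2 in db/+. It had 8, 8, 4 and 0 counts in Con+Veh and 28, 2, 2 and 4 in STZ-HFD, where the 28 belong to replicate 1. Its highest library held 38.1% of its reads, against 20.4% for *Camp*.

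*Camp*, whose product is cut into an antimicrobial peptide (ENSMUSG00000038357, chromosome 9 from 109847379 to 109849617), had another order. It stood at 0.615, 0.313 and 0.466 CPM in db/+ and at 0.110, 0.287 and 0.0314 CPM in db/db. Each db/+ library lay above each db/db library, as in 6.22% of the 46963 genes with a count (6.42% were higher in db/db), and the p was 0.10, the smallest that 3 mice against 3 can give (two-sided exact permutation test on log2(CPM + 1)). Adjusted over the 7 genes outside the fit, it was 0.70. In Con+Veh it had 0, 2, 18 and 0 counts and in STZ-HFD 18, 2, 0 and 0.

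*Retnlg* (ENSMUSG00000022651, chromosome 16 from 48872621 to 48874496), a resistin family member of mature neutrophils, had 16, 294 and 4 counts in db/db and 6, 2 and 16 in db/+. It had 0, 2, 52 and 0 counts in Con+Veh and 4, 0, 0 and 2 in STZ-HFD. Libraries high for it, db/db replicate 2 and Con+Veh replicate 3, were also the highest for *S100a8* and *S100a9*. Without db/db replicate 2, the db/db mean of *Retnlg* went from 1.51 to 0.157 CPM, beside 0.136 ± 0.108 CPM in db/+ (SD, n = 3). Its exact p was 0.40 for db/db and 0.886 for STZ-HFD (two-sided permutation tests).

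Azurophil granule genes had the lowest read totals of the 10, with 43 for *Elane*, 74 for *Prtn3* and 126 for *Mpo*. *Elane* (ENSMUSG00000020125, chromosome 10 from 79886247 to 79888215) had 0 counts in all 3 db/+ libraries, which allows up to 0.0466 to 0.0615 CPM, and 0, 6 and 2 in db/db. It had 1, 0, 1 and 3 counts in Con+Veh and 6, 21, 1 and 2 in STZ-HFD. *Mpo*, which makes hypochlorous acid (ENSMUSG00000009350, chromosome 11 from 87793581 to 87804413), had 1, 0 and 0 counts in db/+ and 1, 21 and 21 in db/db. It had 0, 0, 10 and 15 counts in Con+Veh and 37, 3, 1 and 16 in STZ-HFD, the 37 in replicate 1. *Prtn3* (ENSMUSG00000057729, chromosome 10 from 79874476 to 79883174) had 5, 4 and 6 counts in db/+, 5, 1 and 10 in db/db, 1, 1, 8 and 0 in Con+Veh, and 11, 2, 20 and 0 in STZ-HFD. All 3 genes overlapped between groups in both models. The exact p ran from 0.20 to 0.90 for db/db and from 0.20 to 0.60 for STZ-HFD (two-sided permutation tests on log2(CPM + 1)). For the 7 genes outside the fit, the adjusted p was 0.70 or more in each model. The smallest p that 4 mice against 4 allow is 0.029. Without STZ-HFD replicate 1, the log2 difference in STZ-HFD turned from 0.17 to -0.10 for *Mpo* and from 0.17 to -0.07 for *Ltf*. It kept its sign for the other 5, at 0.22 for *Elane*, 0.13 for *Prtn3*, -0.20 for *Camp*, -0.23 for *Ngp* and -0.43 for *Retnlg*.

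The 3 azurophil and the 3 specific genes *Camp*, *Ltf* and *Ngp* did not make up the same share in each library. In db/db replicate 2 the azurophil genes took 6.50% of 431 counts of these 6 genes (exact 95% interval 4.36 to 9.25), and in db/+ replicate 1 they took 5.45% of 110 (2.03 to 11.5). In db/db replicate 3 they took 68.8% of 48 (53.7 to 81.3), in STZ-HFD replicate 2 83.9% of 31 (66.3 to 94.5) and in Con+Veh replicate 4 85.7% of 21 (63.7 to 97.0). In STZ-HFD replicate 1 they took 52.4% of 103 (42.4 to 62.4). Azurophil genes thus took most of these reads in 6 libraries, namely db/db replicate 3, Con+Veh replicate 4 and all 4 of STZ-HFD. In the other 8 their share was at most 31.6%, that of db/db replicate 1 (6 of 19 counts), and 4 of those 8 held only 10 to 25 counts of the 6 genes. The interval of STZ-HFD replicate 1 included an even split, and 0 of the 10 granule genes exceeded the receptor genes' 95th percentile there. In the other STZ-HFD libraries a single gene held most azurophil counts. It was *Elane* in replicate 2 (21 of 26), *Prtn3* in replicate 3 (20 of 22) and *Mpo* in replicate 4 (16 of 18). Reads of *Mpo* and *Prtn3* may include those of their overlapping partners.

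Summed over the 9 genes other than *Lcn2*, the level ran from 0.748 to 5.29 CPM in db/+, 1.89 to 22.4 in db/db, 1.06 to 15.9 in Con+Veh and 1.27 to 5.71 in STZ-HFD. Of 3016 counts in all, 51.8% came from db/db replicate 2, and 71.6% from that library together with Con+Veh replicate 3 and db/+ replicate 1. The highest library of STZ-HFD was replicate 1, and without it the group reached 2.08 CPM.

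**Figure D5:**
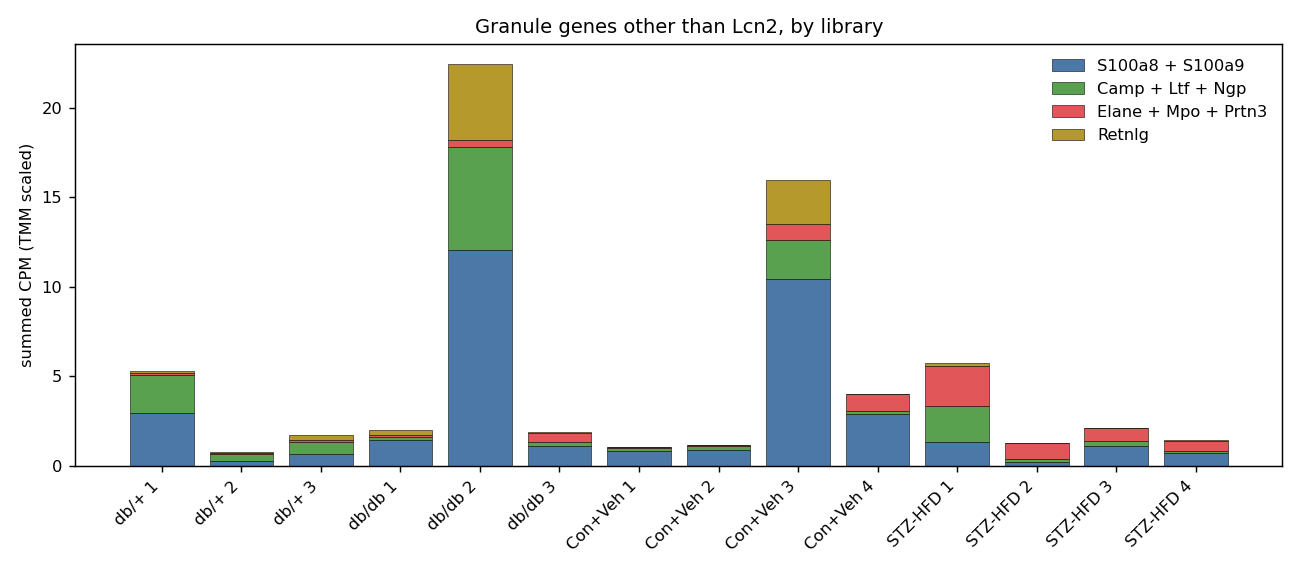
Summed CPM of the 9 granule genes other than *Lcn2* in each library, stacked by type. Db/db replicate 2 reaches 22.4 CPM and Con+Veh replicate 3 15.9 CPM, while the other 12 libraries stay at 5.71 CPM or less.

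Spearman correlation of CPM over the 14 libraries was 0.847 for *S100a9* with *Ngp*, 0.710 for *S100a9* with *Retnlg*, 0.698 for *Camp* with *Retnlg* and 0.818 for *Elane* with *Mpo*. For *Lcn2* it was 0.495 with *S100a9* and -0.407 with *Ltf*. These values describe libraries that share depth and amplification, with many tied or near-zero counts. The 8 other genes in the fit whose log2 CPM followed the mean of the centered values of *Lcn2*, *S100a8* and *S100a9* most closely were *Pcdhb16*, *4933412E12Rik*, *Cpa6*, *Gm44645*, *Reps2*, *Pla2g7*, *Cxxc4* and *Homez*. Their Spearman rho was 0.815 to 0.864 over 14 libraries, among 16912 genes compared.

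Transcript estimates held fewer reads of these genes. The transcript rows used here cover 76.3% of the annotated transcripts and hold every coding transcript of 6 of the 10 genes. For those 6, the estimates summed to 10.1% of the gene counts for *S100a8* (80 of 791), 17.2% for *Ltf*, 21.1% for *Camp*, 33.6% for *Ngp*, 37.2% for *Elane* and 39.2% for *Retnlg*. Over 15924 coding genes with at least 100 counts the median was 26.4%. Rows for a coding transcript of *Lcn2*, *S100a9*, *Mpo* and *Prtn3* were not used here, so transcript totals give no check of these 4 genes.

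Other genes of neutrophils were placed in 9 lists of 65 genes, of which 64 were in the table and 32 in the fit. In db/db 1 was called higher and 0 lower, 3.12% of 32, against 1.66% of all genes. The median log2 fold change was 0.41, against -0.04 for all genes. In STZ-HFD 0 were higher and 4 lower, 12.5%, against 2.61%, with a median of -0.52 against -0.04. For the difference 0 were higher and 3 lower, 9.38%, against 1.77%. The called genes *C5ar1*, *Lyz2*, *Cybb* and *Spi1* are also used by macrophages. Of 11 markers of monocytes and macrophages, 3 were called lower in STZ-HFD too, against 1.31% of all genes. How far monocytes and macrophages account for the values was not tested.

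*C5ar1*, the receptor for the complement fragment C5a, stood at 51.0 ± 6.81 CPM in db/db and 21.2 ± 2.40 CPM in db/+ (SD, n = 3 each). It rose there by a log2 fold change of 1.25 (adjusted p = 0.0127) and fell in STZ-HFD, by a log2 fold change of -1.02 (adjusted p = 0.0104, limma), from 32.7 ± 4.47 to 16.6 ± 4.80 CPM (SD, n = 4 each). The difference of -2.26 was called in all 24 alternatives, the rise in 22 of 25 and the fall in 11 of 25. *Lyz2*, lysozyme, fell in STZ-HFD from 69.9 ± 20.8 to 42.6 ± 6.87 CPM (SD, n = 4 each), a log2 fold change of -1.02 (adjusted p = 0.0216, limma), called in 11 of 25 alternatives. *Cybb*, the catalytic subunit of the NADPH oxidase, fell there too, by a log2 fold change of -1.15 (adjusted p = 0.0216, limma), called in 14 of 25. *Spi1*, which encodes PU.1, fell in STZ-HFD, by a log2 fold change of -1.65 (adjusted p = 0.0480, limma), called in 7 of 25.

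List by list, 2 of 5 other azurophil genes were in the fit, *Ctsc* (the protease that activates the granule proteases) and *Srgn* (the granule proteoglycan), and 0 were called. Group means are given with db/+ first, then db/db, Con+Veh and last STZ-HFD. *Ctsc* stood at 5.95, 9.75, 9.48 and 9.87 CPM, and *Srgn* at 2.00, 3.81, 4.01 and 2.84 CPM. Of 13 other specific and gelatinase granule genes 9 were in the fit. The highest were *Mmp9*, gelatinase B, at 238, 148, 48.7 and 35.7 CPM, and *Lyz2*. All 5 NADPH oxidase subunits were in the fit, led by *Cyba* and *Cybb*. Of 12 surface receptors 4 were, led by *C5ar1* and *Selplg*, and *Ly6g*, the marker used to sort mouse neutrophils, had 0 counts in 13 of 14 libraries and 8 in the other. Of 8 cytosolic genes of mature neutrophils 7 were in the table and 0 in the fit, and the highest, *Wfdc21* and *Padi4*, reached 42 counts and 73 counts, the latter in STZ-HFD replicate 1. Of 6 granulocyte transcription factors 3 were, led by *Cebpa* and *Cebpd*. Of 6 chemoattractants and growth factors 1 was, *Cxcl12*, at 98.5 to 173 CPM, while *Cxcl1* averaged 0.365 CPM or less in each group. Of 5 protease inhibitors 3 were, led by *Serpinb6a* and *Serpina3n*. *Serpina3n* stood at 14.4, 40.7, 27.3 and 25.4 CPM, with a log2 fold change of 1.64 in db/db (adjusted p = 0.0541, limma). Of 5 receptors of calprotectin and lipocalin 2, all 5 were in the fit, led by *Bsg* and *Slc22a17*. Apart from *C5ar1*, *Lyz2*, *Cybb* and *Spi1*, none of the genes in these lists was called in either model.

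Markers of other cells were measured beside the granule genes. The disc and cartilage list, which checks the tissue, summed to 50968 to 75162 CPM in db/+ and 24576 to 57707 in db/db. It summed to 4983 to 17931 in Con+Veh and 1831 to 3536 in STZ-HFD, led by *Chad* and *Col1a1*. In STZ-HFD 4 of its 12 genes were called lower, against 1.31% of all genes. The rest of the list was not called there, and 0 were called higher. Skeletal muscle markers, led by *Acta1* and *Tnnt3*, summed to 2469 to 5050 CPM in db/+ and 1761 to 3053 in db/db. They summed to 4227 to 5305 CPM in Con+Veh and 4196 to 11610 in STZ-HFD, where the lowest value is that of replicate 1. Without that library the STZ-HFD sums were 9923 to 11610 CPM, all above Con+Veh. Of 6 muscle markers 1, *Acta1* (skeletal muscle actin), was called higher in STZ-HFD, at a log2 fold change of 1.46 (adjusted p = 0.0189, limma). Of all genes 1.30% were called higher there, and 0 of the 6 were called lower. Macrophage markers, led by *Csf1r* and *Cd68*, summed to 95.4 to 175 CPM in db/db, 95.8 to 154 in db/+, 104 to 235 in Con+Veh and 77.4 to 143 in STZ-HFD (83.0 to 143 without replicate 1). Adipocyte markers, led by *Car3* and *Cfd*, summed to 910 to 4099 CPM in db/+ and 1183 to 1345 in db/db. They summed to 2413 to 4806 CPM in Con+Veh and 4061 to 7913 in STZ-HFD. In db/db 3 of 6 (*Adipoq*, *Plin1* and *Fabp4*) were called higher, against 1.23% of all genes, and 0 lower.

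Blood and marrow marker sums lay below those of disc, muscle and adipocyte markers. Those of B lineage cells and progenitors overlapped the macrophage sums. Erythroid markers, led by *Hba-a1* and *Hbb-bs*, summed to at most 98.4 CPM in any library, and B lineage markers, led by *Ebf1* and *Pax5*, to 59.2 to 132 CPM. T cell markers (*Cd5*, *Cd4*) reached 8.14 CPM in STZ-HFD replicate 1 and 6.28 elsewhere, mast cell and basophil markers (*Mcpt4*, *Cma1*) 15.6, megakaryocyte and platelet markers (*Pf4*, *Itga2b*) 33.8 and progenitor markers (*Cd34*, *Kit*) 112. Osteoclast markers (*Acp5*, *Ctsk*) reached 82.0 CPM and keratinocyte markers (*Sfn*, *Krt10*) 19.4. Eosinophil markers (*Epx*, *Prg2*) reached 4.77 CPM in STZ-HFD replicate 1 and 0.470 CPM elsewhere. Of the markers in these 8 lists and the eosinophil list, only *Pf4* was called in a model, in STZ-HFD, at a log2 fold change of -1.56 (adjusted p = 0.0432, limma). The 3 megakaryocyte and platelet genes in the fit had a median log2 fold change of 0.057 there, so its list did not share the fall. *Ebf1* and *Cd34* were called in the difference of the models alone. The part that blood, marrow or another tissue had in the granule gene values was not tested.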

How the data were processed

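RNA was sequenced from pooled caudal discs of 14 mice. Per the labels and the study's methods, the authors aligned reads to GRCm38 with STAR 2.7.9a1 and deposited a gene count table (raw read counts, featureCounts 2.0.32, Ensembl 101) and a table of estimated counts per transcript (Salmon 1.5.23). The estimated counts deposited by the authors were rounded and summed by gene for 1 alternative and 1 comparison of totals. The transcript rows used here are part of the annotation. Of 55774 gene rows, 287 repeated another row in full and were left out, which left 55487 genes. No other aligner setting or the strand of counting is given in the sources used here.

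The 16915 genes whose CPM exceeded 1 in 3 or more libraries were scaled by TMM (edgeR 4.0.16, R 4.3.3) and fitted with limma 3.58.1 (voomWithQualityWeights), with 1 mean per group over all 14 libraries. P-values were adjusted over all genes tested by Benjamini-Hochberg. The 7 granule genes below the filter were tested per model with a two-sided exact permutation test of log2(CPM + 1), adjusted over 7 tests. Intervals of shares are exact 95% binomial intervals. The fit was tested on simulated counts. It found 49.5% of the genes given a change when db/db was compared with db/+. For STZ-HFD against Con+Veh it found 57.5% of them. A gene without a call may therefore still differ between groups. DESeq2 1.42.0, edgeR's quasi-likelihood test and other settings were alternatives.

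The 10 genes, the gene lists and the tests were chosen with earlier results of these data known. Text names all 10 genes, from each neutrophil list the called genes and the 2 highest by mean CPM, from each list of other cells the 2 highest, and the 8 genes most correlated with the 3 fitted members. *Ly6g*, *Ebf1*, *Cd34* and called markers of other cells were named after their values were seen. Replicates are mice by the study's methods.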

Additional observations from a re-analysis of the deposited data

Results flagged for a closer look

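In groups of 4 mice, 22 sets of CPM values were examined for a library far from the other 3. The measure was its gap to the nearest one as a share of the group's range, and 6 sets stood out. The cutoff used is passed by chance in about 1 in 20 sets only for independent, normally distributed values. Most of these sets hold low, skewed counts, all reuse the same libraries, and some are sums over genes. The 6 sets can therefore not be compared with that rate. Con+Veh replicate 3 was the highest by 0.951 of the range for *Camp*, 0.856 for *Ngp*, 0.983 for *Retnlg* and 0.928 for *Prtn3*. STZ-HFD replicate 1 was the highest by 0.907 of the range for *Camp* and 0.948 for *Ltf*. Groups of 3 were not examined, so db/db replicate 2 is not among these. *Lcn2* was listed for a difference between the models of -3.47 on the log2 scale.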

How the results depend on the processing

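Counts are given in the order db/db against db/+, STZ-HFD against Con+Veh, and their difference. The fit called 281, 441 and 299 genes. edgeR's quasi-likelihood test called 0, 29 and 5 genes (1891, 2136 and 1991 at an unadjusted p under 0.05), voom without quality weights 9, 19 and 3, and gene totals of the transcript counts 144, 56 and 62. Without a filter 534, 130 and 240 genes were called, and with the replicate number as a block 618, 38 and 72. Each model fitted alone gave 436 and 287, DESeq2 212, 277 and 251, filterByExpr 236, 217 and 154, and leaving out both libraries whose names end in RIP 388, 244 and 114. Leaving out each library gave 21 to 392, 17 to 642 and 4 to 423.

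Of the granule genes, 0, 0 and 1 were called. The block called 1 in db/db (*Lcn2*, 1.45), and DESeq2 called 1 in STZ-HFD (*Lcn2*, -1.89). The *Lcn2* difference went to 0 calls with edgeR, voom without weights, filterByExpr, no filter, both RIP libraries left out and transcript totals, which lack its coding transcript. Leaving out each library gave 0 to 0, 0 to 1 and 0 to 1 calls. The causes were not tested.

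With the block, *S100a9* in db/db turned to -1.04. The deviations of same-numbered mice had a mean correlation of -0.0911 in the db model (-0.280 to 0.192) and -0.111 in the other (-0.260 to -0.0422). Between mice with different numbers it ran from -0.275 to 0.453 and from -0.172 to 0.261. With so few mice, this check cannot tell whether the numbers pair them. In STZ-HFD the fit without a filter turned *Mpo* to -0.45 and *Ltf* to -0.13, and a pseudocount of 0.1 turned *Camp* to 0.021. Leaving out each library, chosen after the data were seen, gave log2 differences in STZ-HFD from -0.10 to 0.34 for *Mpo*, -0.20 to 0.20 for *Camp*, -0.074 to 0.27 for *Ltf*, -0.33 to 0.033 for *Ngp* and -0.54 to 0.056 for *Retnlg*. In db/db it gave -0.15 to 0.25 for *Ltf*, -0.29 to 0.91 for *Ngp* and -0.057 to 0.038 for *Prtn3*. The 7 genes outside the fit had a median of 1 to 4.5 counts per library, which limits the differences that can be detected.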
